A study of Mus musculus with 12 samples.

Results

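Creb1 and its close relative Crem were followed across induction, reversal and region in mouse hippocampus expressing VP16-CREB, an always-active version of CREB. They are 2 of the 8251 genes with a probe set of their own on the array, taken with every probe set annotated with the single symbol Creb1 or Crem, which gave 3 for Creb1 and 2 for Crem out of 12488. Each probe set, a group of short oligonucleotides designed from a transcript sequence, some of which other sequences can share, was kept on its own. The 3 Creb1 probe sets were designed from 1 source sequence and so were the 2 Crem probe sets, so they are not independent readings of separate transcripts, and where each lies in its gene was not analysed here.

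The transgene of these mice, called VC, is silent while the animals receive doxycycline (dox) and is switched on when dox is withdrawn. RNA was hybridised to 12 MG-U74Av2 arrays, 9 of whole hippocampus and 3 of microdissected CA1, a subfield made mostly of pyramidal neurons. Each hippocampal sample pooled 6 to 10 mice of like genotype and induction time. The labels name no strain, age, promoter of the transgene or number of animals behind a CA1 sample. The never-induced hippocampal arrays were 2 of wild-type mice, housed the same way, and 1 of VC mice on dox. The induced hippocampal arrays were 2 of VC mice 1 week off dox, 2 at 2 weeks and 1 at 5 weeks. A single reversed array held VC mice that spent 3 weeks off dox and then 2 weeks back on it. That sample is a VC sample by its title and a wild-type one by its description. The CA1 arrays were 1 of wild-type mice and 2 of VC mice 3 weeks off dox.

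CREB, the product of Creb1, and CREM, the product of Crem, are basic leucine zipper proteins that bind the cAMP response element (CRE) as dimers with themselves or with each other. CREB is bound to many promoters before stimulation and activates them once kinases of the cAMP, calcium and growth factor pathways phosphorylate it, which recruits the coactivator CBP. Crem encodes activators and repressors from alternative exons, and an internal promoter with CREs of its own yields the repressor ICER after cAMP or calcium signals. In hippocampal neurons CREB is known for its part in long-lasting synaptic potentiation and memory. VP16-CREB joins the activation domain of a viral protein to CREB, so that it activates without phosphorylation. The transgene carries Creb1 sequence. Whether the Creb1 probe sets read its transcript, the endogenous one or both was not determined here.

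Creb1 lies on mouse chromosome 1 at 64532794 to 64604548 (GRCm38.p6). Its promoter is shown because the gene encodes the factor that binds the CRE, and the RefSeq window of the same build, cut to the 240 bases upstream of the gene start (chr1:64532554-64532793, plus strand), held no copy of the 8-base CRE TGACGTCA and no core of it (TGACG or CGTCA) on either strand, nor did the whole window. Cores overlap full sites, and a full site counts as both. The absence says only that these letters are not in this window. Over all genes with such a window, which reaches a little past the start, 2.03% held the full CRE and 23.0% a core.
Creb1: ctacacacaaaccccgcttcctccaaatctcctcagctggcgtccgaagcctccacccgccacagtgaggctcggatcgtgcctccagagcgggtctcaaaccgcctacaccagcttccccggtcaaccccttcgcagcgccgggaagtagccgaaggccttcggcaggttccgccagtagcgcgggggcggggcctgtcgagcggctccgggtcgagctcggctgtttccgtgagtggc

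Of the 3 Creb1 probe sets, 2 were higher on every array of mice with the transgene switched on, while no Crem difference passed the test. With region as a term in the fit, the Creb1 probe set 102672_g_at was higher in the 7 induced arrays than in the 4 uninduced ones by 2.91 ± 0.24 on the log2 scale (SE; limma, adjusted p = 0.000565), with a 95% interval from 2.37 to 3.44. This was the smallest p of the 7069 probe sets tested. Values under 65.7, the floor, were raised to it before the fit. For 102672_g_at this applied to every uninduced array except wild-type hippocampal array 2. The raised values set the size of the difference and narrow the spread among the uninduced arrays. The other tested Creb1 probe set, 102671_at, was higher by 1.63 ± 0.33 with an adjusted p of 0.251. Thus 1 of the 2 tested Creb1 probe sets passed, beside 0.0283% of all tested probe sets. Both had entered the test only through induced arrays, so this share is not support of its own. The 3 probe sets that were too dim to be tested differed by 0.38 ± 0.37 (Creb1 102673_at), 0.17 ± 0.16 (Crem 100533_s_at) and 0.22 ± 0.21 (Crem 160526_s_at), with adjusted p = 0.935, 0.921 and 0.929 in a fit over all 12422 probe sets.

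The test covered probe sets above the median of their own array on at least 2 arrays. Probe set 102672_g_at met this on 5 arrays and 102671_at on 3, and every one of them was induced, so the filter itself favoured a difference for these probe sets. Probe set 102673_at was above the median on 0 arrays, 100533_s_at only in wild-type CA1 and 160526_s_at only in 1 induced CA1 array. In the fit over all 12422 probe sets, which needs no such filter, 102672_g_at passed in the region-blocked comparison (adjusted p = 0.0266), beside 0.00805% of them all.

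The scaled intensities, with every array brought to a trimmed mean of 1000, show this array by array. For Creb1 102672_g_at, the wild-type hippocampal arrays read 55.0 and 80.3 and the VC array on dox 48.1. After 1 week off dox the values were 316.4 and 361.6, after 2 weeks 563.5 and 792.9, and after 5 weeks 567.2. Wild-type CA1 read 58.6, against 463.9 and 753.4 in induced CA1. No induced array overlapped an uninduced one in either region. The group levels were 61.1 ± 16.9 (SD, n = 3) without induction and 520.3 ± 190.5 (SD, n = 5) with it. In place among the probe sets of its own array, 102672_g_at stood above 16.6% to 23.1% of them in never-induced hippocampus and above 43.2% to 64.7% in induced hippocampus; it was dim without induction and near the middle with it.

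**Figure D1:**
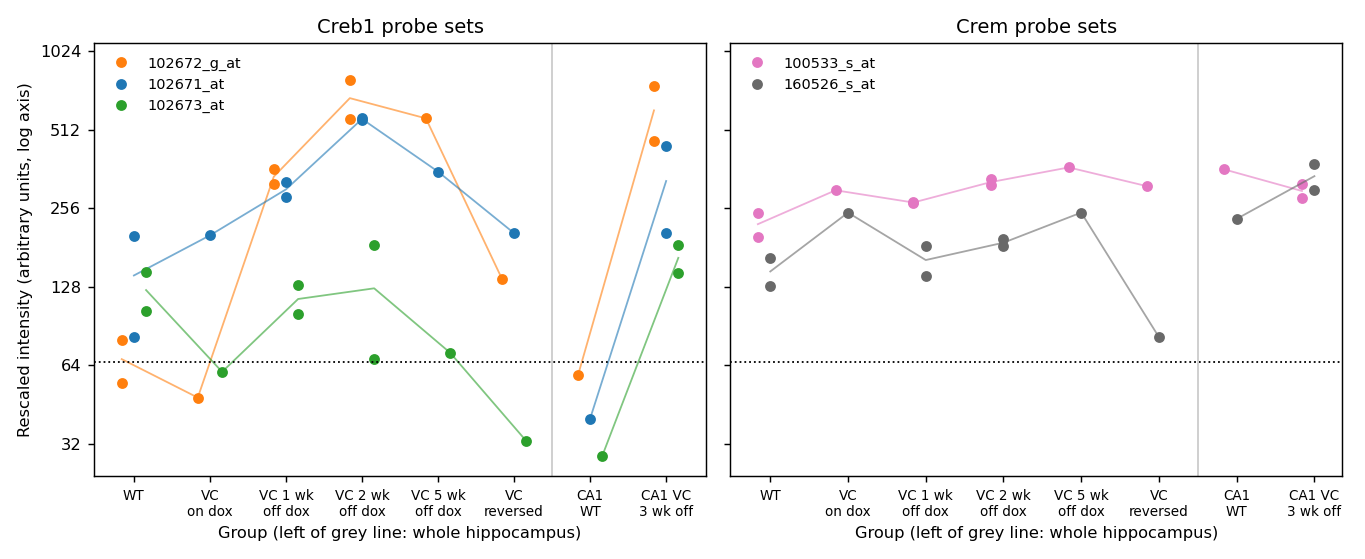
Scaled intensity of the 3 Creb1 and 2 Crem probe sets on each of the 12 arrays (log axis, 1 point per array, groups along the horizontal axis, lines through group means, dotted line at the floor of 65.7). Probe set 102672_g_at reads 48.1 to 80.3 without induction and 316.4 or more with it, while the induced and never-induced hippocampal ranges of both Crem probe sets overlap.

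Probe set 102671_at, also of Creb1, read 201.1 and 82.1 in wild-type hippocampus and 201.8 in VC mice on dox. Off dox it gave 323.6 and 282.3 after 1 week, then 560.9 and 567.6 after 2, and 354.2 after 5. All 5 induced arrays were above all 3 never-induced ones, a gap narrowed by the spread among the latter (161.6 ± 68.9, SD, n = 3). Wild-type CA1 read 40.0, under the floor of 65.7, and induced CA1 read 206.5 and 445.8. Of the 5 probe sets, 102671_at and 102672_g_at were the ones whose induced arrays were above all uninduced ones in both regions, a property shared by 0.869% of the 12422 probe sets. In hippocampus alone it held for the same pair, beside 1.61% of all probe sets. Over the 12 arrays the log2 values of these probe sets had a Pearson r of 0.82, and over the 9 hippocampal arrays 0.84. These correlations describe probe sets designed from 1 source sequence and read on the same arrays.

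The third Creb1 probe set, 102673_at, did not separate the hippocampal groups. It read 145.5, 103.4 and 60.4 on the wild-type and dox arrays and 67.5 to 185.3 on the induced ones, with both 1-week arrays (100.3 and 129.7) inside the range without induction. Its difference between induced and never-induced hippocampus was 0.050 ± 0.39. The wild-type CA1 value was 28.8, and the induced CA1 values were 145.3 and 185.5. Its r with 102672_g_at was 0.42 over the 12 arrays and 0.15 over the hippocampal ones.

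The timing was followed in a fit with 1, 2 and 5 weeks apart, each against the same 3 never-induced arrays. Creb1 102672_g_at was higher by 2.27 ± 0.25 at 1 week, 3.25 ± 0.25 at 2 weeks and 3.01 ± 0.31 at 5 weeks (adjusted p = 0.0365, 0.00206 and 0.00414). Of the never-induced arrays 2 of 3 lay at the floor for this probe set, which sets the size of these differences and narrows the spread among those arrays. Without a floor the difference at 1 week was 2.50 and did not pass (adjusted p = 0.0661). Probe set 102672_g_at was the 1 member that passed at each time, beside 0.0283%, 0.156% and 0.99% of all tested probe sets. Both 1-week arrays were below all later induced arrays, and the 5-week array lay inside the range of the 2-week pair. The difference between 2 weeks and 1 was 0.98 ± 0.27, with an unadjusted p of 0.00586 and an adjusted p of 0.351 in limma, so it did not pass. The call at 1 week was lost in the fit over all 12422 probe sets (adjusted p = 0.202), whereas those at 2 and 5 weeks were kept (adjusted p = 0.0485 and 0.0339). In that fit 0.0403%, 0.0483% and 0.58% of all probe sets passed at the 3 times. Between 2 weeks and 1, 0% of the tested probe sets passed and 9.51% had an unadjusted p under 0.05.

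Probe set 102671_at followed a similar order without passing. It was higher by 1.02 ± 0.44 at 1 week, 1.92 ± 0.44 at 2 weeks and 1.25 ± 0.55 at 5 weeks (adjusted p = 0.969, 0.315 and 0.688). Without wild-type array 2, the lowest of the never-induced arrays, these differences were 0.585, 1.49 and 0.814. The highest hippocampal readings of 102671_at were the 2 arrays at 2 weeks. With all induced times taken as 1 level, 102672_g_at passed in induced against never-induced hippocampus, beside 0.0283% of the tested probe sets. In the fit over all 12422 probe sets that call was lost (adjusted p = 0.322), as were all others (0%, with 3.57% at an unadjusted p under 0.05).

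**Figure D2:**
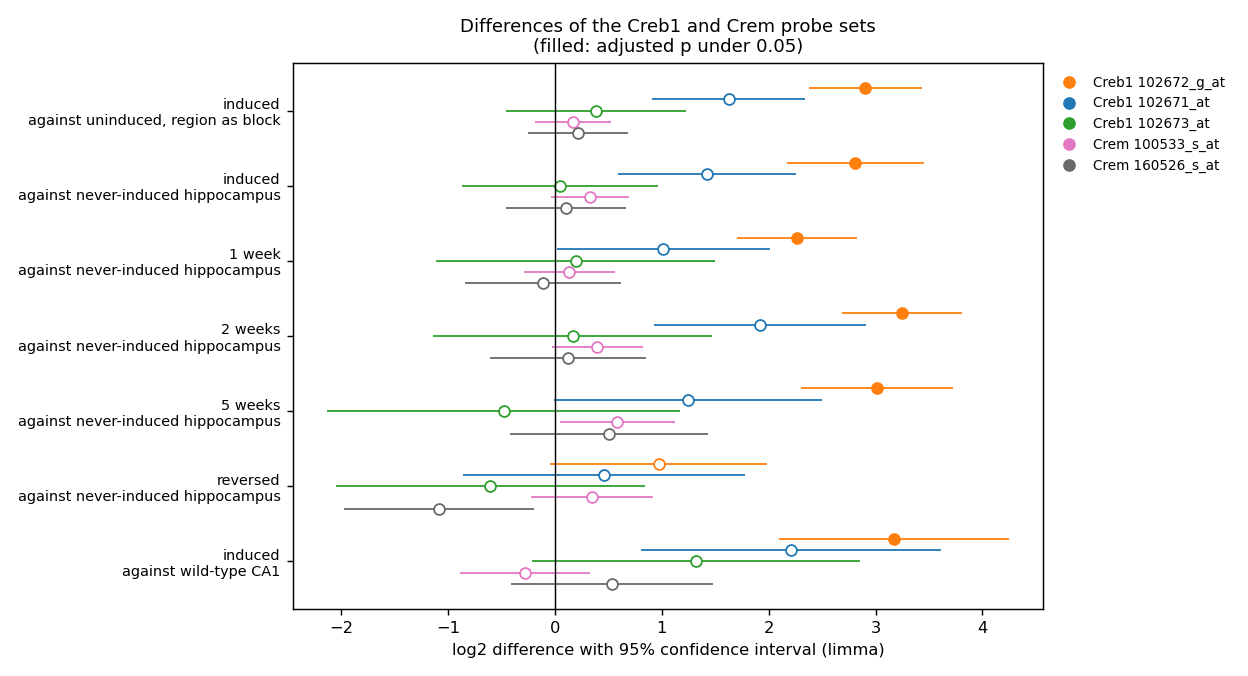
Log2 difference of each Creb1 and Crem probe set in 7 comparisons, as points with the 95% confidence interval from limma, filled where the adjusted p was under 0.05. Probe set 102672_g_at is filled in every comparison that includes induced arrays, and the Crem differences lie between -0.28 and 0.58 except on the reversed array.

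In the reversed sample Creb1 102672_g_at read 137.6, above all 3 never-induced arrays and below all 5 induced ones. On the log2 scale its difference from the induced level was -1.84 ± 0.43, with an unadjusted p of 0.00156 and an adjusted p of 0.858 in limma, and from the never-induced level 0.97 ± 0.46 (adjusted p = 1). Probe set 102671_at read 205.7, close to the higher never-induced arrays (201.1 and 201.8) and below all induced ones. On the log2 scale the share of the rise that remained was 0.345 for 102672_g_at and 0.325 for 102671_at, and on scaled intensity 16.7% and 17.2%. For 102671_at the share depends on wild-type array 2, which read 82.1 and lowered the never-induced mean. The reversed value was near the other never-induced arrays. The induced mean covers 1, 2 and 5 weeks, whereas the reversed mice had spent 3 weeks off dox, a time without a hippocampal array. None of the differences from either level passed, and in both comparisons 0% of the 7069 tested probe sets did, while 2.55% and 2.56% had an unadjusted p under 0.05 in limma. A single array stands for the reversal, so its own spread was not measured.

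In CA1 the comparison was of 2 arrays with 1, on which all 3 Creb1 probe sets lay at the floor, so the Creb1 differences below are taken from that floor. Creb1 102672_g_at was higher after 3 weeks of induction by 3.17 ± 0.49, with a 95% interval from 2.09 to 4.25 (adjusted p = 0.0292), and was the 1 member that passed, beside 0.467% of all tested probe sets. Probe set 102671_at was higher by 2.21 ± 0.63, with an unadjusted p of 0.00544 and an adjusted p of 0.224 in limma. Probe set 102673_at was higher by 1.32 ± 0.66 (adjusted p = 0.503). In 4 of the 5 probe sets both induced arrays were above the wild-type array, which also held for 30.6% of all probe sets. The CA1 effect on 102672_g_at exceeded the hippocampal one by 0.36 ± 0.57, with an interval from -0.89 to 1.61, and that on 102671_at by 0.78 ± 0.74, with an interval from -0.85 to 2.42. No member passed this test of the difference between regions, beside 0.0566% of all tested probe sets. The call for 102672_g_at in CA1 was lost without wild-type hippocampal array 2 (adjusted p = 0.0608) and without induced CA1 array 2 (adjusted p = 0.0612). In the fit over all 12422 probe sets it was kept (adjusted p = 0.0231), beside 2.35% of them.

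The 2 induced CA1 arrays differed from each other, with 102671_at at 206.5 and 445.8 and 102672_g_at at 463.9 and 753.4. The ratio of the 3′ to the 5′ Actb control probe set, a gauge of RNA integrity and labelling, was 3.73 on the first of them and 1.40 on the second, against 1.83 in wild-type CA1 and 1.80 to 2.81 in hippocampus. Its part in the Creb1 readings was not tested.

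Without induction Creb1 102672_g_at lay at the floor in wild-type CA1 and on 2 of the 3 never-induced hippocampal arrays, so no difference between the regions could be measured for it. Probe set 102671_at was lower in wild-type CA1 than on any hippocampal array, with a difference of -1.19 ± 0.60 from the never-induced level (adjusted p = 0.207). None of the 5 probe sets passed here, although 11.7% of all tested probe sets did.

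Crem was measured by 100533_s_at and 160526_s_at, whose names mark probes that other sequences of the array design share. Wild-type hippocampus gave 198.7 and 246.8 for 100533_s_at, and VC mice on dox 300.5. Off dox the values were 270.1 and 269.3 after 1 week, 330.8 and 315.6 after 2, and 367.8 after 5. The 3 arrays at 2 and 5 weeks were above every never-induced array, whereas both 1-week arrays were below the array on dox. The induced and never-induced levels were 310.7 ± 42.0 (SD, n = 5) and 248.7 ± 50.9 (SD, n = 3), a log2 difference of 0.33 ± 0.16 with an interval that reached 0.70 (adjusted p = 1). The largest of its differences by time was 0.58 ± 0.22 at 5 weeks (adjusted p = 0.574). In CA1 the direction was opposite, with 361.4 in wild type and 316.6 and 280.7 after induction, a difference of -0.28 ± 0.26. The effects in CA1 and hippocampus differed by -0.61 ± 0.30, which did not pass (adjusted p = 0.707).

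Probe set 160526_s_at of Crem read 128.7 and 164.6 in wild-type hippocampus and 246.7 in VC mice on dox. The induced arrays spanned 141.2 to 246.8 with a median of 183.6, and so overlapped the never-induced ones. The difference was 0.11 ± 0.24, with an interval from -0.46 to 0.67. The wild-type CA1 value was 233.5 and the induced ones 379.1 and 301.6, higher by 0.53 ± 0.41 (adjusted p = 0.704). The r between the 2 Crem probe sets was 0.38 over the 12 arrays, lower than that between the leading Creb1 pair.

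Both Crem probe sets were higher in VC mice on dox than in either wild-type array. The differences were 0.44 ± 0.15 for 100533_s_at and 0.76 ± 0.25 for 160526_s_at, with unadjusted p = 0.0351 and 0.0321 and adjusted p = 1 for both in limma. Creb1 102672_g_at differed by -0.14 ± 0.35 between the same samples, and 102671_at by 0.65 ± 0.58. No member passed, beside 0% of all tested probe sets and 1.41% with an unadjusted p under 0.05.

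The reversed array gave the lowest reading of 160526_s_at in the series, 82.1. On the log2 scale this differed by -1.08 ± 0.38 from the never-induced and by -1.19 ± 0.36 from the induced level. The unadjusted p values were 0.0234 and 0.0120 and the adjusted ones 1 and 0.906 in limma. The other Crem probe set read 311.9 there, within the range of the induced arrays, so the 2 probe sets did not move together. Creb1 102673_at was also lowest of the hippocampal arrays in the reversed sample, at 32.8. That array was the lowest of the 9 for 6.71% of all probe sets.

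**Figure D3:**
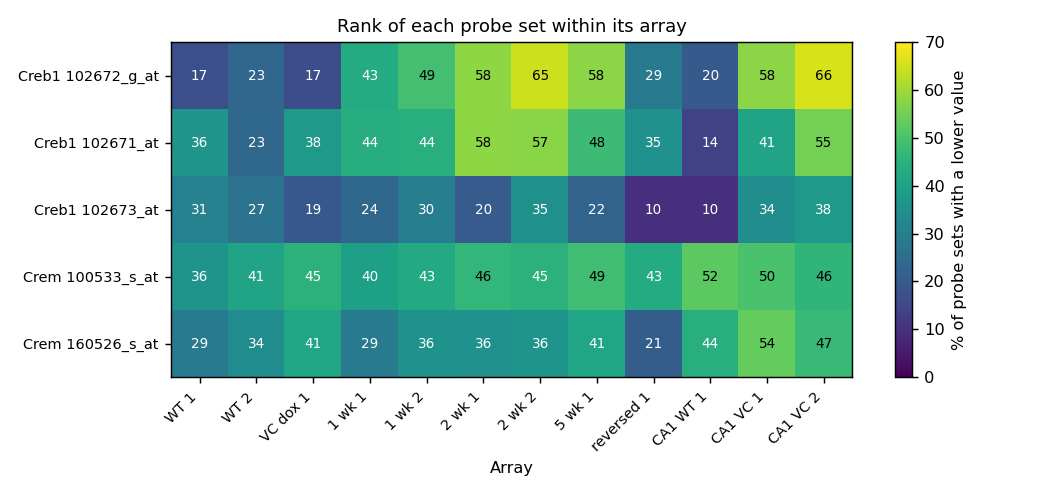
Percent of the probe sets of the same array that lie below each Creb1 and Crem probe set, by array. Creb1 102672_g_at moves from between 16.6% and 23.1% in never-induced hippocampus to between 43.2% and 64.7% in induced hippocampus. Crem 160526_s_at lies between 29.1% and 41.1% in never-induced and between 28.7% and 41.2% in induced hippocampus. In CA1 it stands at 43.8% in wild type and at 47.3% and 53.6% after induction.

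For each probe set the genes with the most similar course were ranked by Pearson r of log2 values over the 12 arrays, among 6403 tested probe sets of other genes. Since all points share the arrays and the induction, these values are descriptions. For Creb1 102672_g_at the closest were Pdyn (r = 0.930), which encodes the opioid precursor prodynorphin, Tinf2 (0.908), a telomere protein, H2-Ab1 (0.905), an MHC class II chain, Lamp2 (0.893), a lysosomal membrane protein, and H2-K1 (0.885), an MHC class I chain whose relatives can share probes. Within hippocampus alone r was 0.955 for Pdyn and 0.856 to 0.885 for the other 4. With Spearman ranks 2 of these 5 stayed among the closest, and with the hippocampal arrays alone 1 did.

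For Creb1 102671_at the closest were Fcgr1 (r = 0.892), an Fc receptor of myeloid cells, Fam107b (0.866), Ss18l2 (0.860), Rhoc (0.812) and Pax1 (0.811). None of them was among the 5 closest to 102672_g_at. For Creb1 102673_at they were Zfp277 (0.810), Pygm (0.799), Cdipt (0.765), Apcdd1 (0.746) and Tdrp (0.735), which is the weakest likeness of the 5 probe sets. With Spearman ranks 2 of the 5 genes stayed among the closest for 102671_at and 3 for 102673_at. With the hippocampal arrays alone 0 stayed for either.

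For Crem 100533_s_at the closest genes were Rnh1 (r = 0.901), the ribonuclease inhibitor, Cux1 (0.853), Anp32b (0.814), Arhgap1 (0.784) and Dhrs3 (0.767). For Crem 160526_s_at they were Tcn2 (0.926), a vitamin B12 carrier, Rbm42 (0.912), Gm1673 (0.908), Dbndd2 (0.908) and Pcbd2 (0.903). No gene was among the 5 closest of both Crem probe sets. With the hippocampal arrays alone 3 of the 5 stayed for 100533_s_at and 0 for 160526_s_at.

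The rest of the CREB pathway was read from lists of factors, cofactors, enzymes and targets that leave out Creb1 and Crem themselves. Of the other ATF and CREB-like factors, 10 of 19 were measured and 9 tested, and 0 passed in either direction in the region-blocked comparison in limma (2 at an unadjusted p under 0.05, beside 6.88% of all tested probe sets), with 6 of 9 positive and a median of 0.030 beside -0.016 over all tested probe sets. Atf3, a stress- and activity-induced member, was higher by 0.97 on the log2 scale and Nfil3, a repressor of the same zipper class, by 0.90, without passing. For Nfil3 the never-induced array on dox read 579.4, within the range of the induced hippocampal arrays (421.3 to 601.1). Wild-type hippocampus read 230.7 and 349.5. In CA1 Nfil3 read 130.3 in wild type and 494.1 and 568.5 after induction. Atf1, the third member of the CREB family proper, had no probe set under a single symbol.

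Of the CREB coactivators 4 of 10 were tested and 0 passed there, also at an unadjusted p, with a median of 0.023 and 2 of 4 positive. Crebbp, which encodes CBP, differed by 0.26, and Kat2b, a histone acetyltransferase, by 0.069. Of the kinases and phosphatases that act on CREB 16 of 34 were tested and 0 passed, also unadjusted, with a median of -0.072 and 6 of 16 positive. Camk2a, the main calcium/calmodulin kinase of forebrain neurons, differed by 0.036 there. Its differences from the never-induced level were 1.60, -1.22 and 0.56 at 1, 2 and 5 weeks, without passing at any. Arrays of a group differed widely in places, with scaled values of 471.1, 494.3 and 128.1 without induction and 1770.2 and 498.0 at 1 week. The 5-week array read 457.5, below wild-type array 1 and the array on dox.

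Of the known CRE target genes 34 of 49 were tested. In the region-blocked comparison 22 of 34 were positive, with a median of 0.13 beside -0.016 over all tested probe sets, of which 46.0% were positive. There 1 of the 34 rose and 0 fell, and that 1 was Pdyn (3.63 ± 0.38, adjusted p = 0.00347). At 1 week 16 of 34 were positive, with a median of -0.026, and at 2 weeks 18 of 34, with a median of 0.035. Over all tested probe sets 48.2% and 48.0% were positive at these times, with medians of -0.0088 and -0.0096. At each of them 1 target passed, beside 0.0283% and 0.156% of all tested probe sets. At 5 weeks 28 of 34 were positive, with a median of 0.48, and Pdyn and the immediate early gene Fos rose (4.34 and 2.36, adjusted p = 0.0022 and 0.0282). Over all tested probe sets 46.2% were positive at 5 weeks, with a median of -0.029, and 0.99% were called in either direction. The Fos difference rests on the single 5-week array, which read 5620.3. In CA1 Fos read 6092.1 in wild type and 5966.6 and 12782.9 after induction. In induced CA1 30 of 34 were positive, with a median of 0.27, beside 47.9% and -0.017 over all tested probe sets. There 0 of the 34 passed in limma and 5 had an unadjusted p under 0.05, beside 10% of all tested probe sets.

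The targets and Creb1 can be set side by side after reversal. The median of the 34 targets was then -0.14 against never-induced hippocampus, with 10 positive, beside a median of 0.022 and 53.4% positive over all tested probe sets. Creb1 102672_g_at differed by 0.97 ± 0.46 in that comparison, without passing, as given above. Pdyn lay at the floor on the reversed array and on 1 of the 3 never-induced ones. These comparisons share their never-induced arrays.

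Some of these targets carry the element that CREB binds near their start. Of the 35 listed targets with a window, 6 held the full CRE (17.1%) and 29 a core (82.9%), beside 2.03% and 23.0% of all genes. The list was made of genes known as CRE targets, so a higher share was built into it. The sites of those 6 are shown with the CRE in capitals, as 30 bases on the strand of the gene, because their genes carry the complete element. They lie at chr1:79440076-79440105 (Scg2), chr7:142900022-142900051 (Th), chr12:90739115-90739144 (Dio2), chr13:99900777-99900806 (Cartpt), chr16:23890874-23890903 (Sst) and chr17:26508597-26508626 (Dusp1), all on the minus strand of GRCm38.p6 and upstream of the RefSeq start.
Scg2: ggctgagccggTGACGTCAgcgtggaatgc
Th: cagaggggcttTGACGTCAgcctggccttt
Dio2: ctctttctcaaTGACGTCAagatctttagc
Cartpt: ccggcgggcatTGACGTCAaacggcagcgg
Sst: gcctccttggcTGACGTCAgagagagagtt
Dusp1: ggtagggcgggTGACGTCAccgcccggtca

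Of these genes 5 were tested and 0 passed in the region-blocked comparison in limma (1 at an unadjusted p under 0.05), where their differences ran from -0.097 to 0.56. Th, the rate-limiting enzyme of catecholamine synthesis, was at the upper end (0.56 ± 0.17, adjusted p = 0.440), followed by Dusp1, a MAP kinase phosphatase (0.52 ± 0.28). Sst, which encodes somatostatin, differed by -0.016 ± 0.14 and Dio2, a thyroid hormone deiodinase, by -0.097 ± 0.17. In CA1 the secretory granule gene Scg2 had the largest difference, 0.71 ± 0.24 (adjusted p = 0.318).

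In bulk tissue, fewer cells of a type and less RNA per cell cannot be told apart, so markers of other cell types were read beside Creb1. The summed scaled intensity of 12 microglia and macrophage markers was 15085 to 18748 in never-induced hippocampus, 15377 to 15818 at 1 week, 28264 to 30840 at 2 weeks and 55098 at 5 weeks. At 5 weeks 5 of the 9 tested markers had risen from the never-induced level, beside 0.99% of all tested probe sets called in either direction. In CA1 the sum was 23326 in wild type, with Ptprc, Fcer1g and Itgam at the floor, and 59018 to 64060 after induction. On the never-induced arrays Fcer1g was at the floor. In the region-blocked comparison 9 of 9 tested markers were positive, with a median of 0.93, beside 46.0% and -0.016 over all tested probe sets, and 0 passed in limma, 5 at an unadjusted p under 0.05. The part of microglial RNA in the Creb1 readings was not tested.

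Choroid plexus markers, which show how much of that neighbouring tissue was dissected along, also varied. Their sum over 5 genes was 5230 to 8018 without induction, 14842 to 16131 at 1 week, 6483 to 10861 at 2 weeks and 13053 at 5 weeks. In CA1 it was 4801 in wild type and 4928 to 6384 after induction. The sum of 7 astrocyte markers was 36335 to 39530 without induction, 34180 to 36621 at 1 week, 46145 to 57088 at 2 weeks and 58103 at 5 weeks, and in CA1 38861 in wild type and 34066 to 55129 after induction. That of 7 interneuron markers was 35256 to 38244 without induction, 32915 to 36469 at 1 week, 42865 to 48293 at 2 weeks and 47545 at 5 weeks. In CA1 the interneuron sum was 35124 in wild type and 42736 to 52633 after induction. Of these interneuron markers, Sst, Npy and Vip are also on the list of known CRE targets.

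The labelled tissue carried its neuronal markers. The sum over 5 pan-neuronal genes was 45249 to 51862 without induction, 54449 to 55164 at 1 week, 40950 to 45150 at 2 weeks, 41837 at 5 weeks and 30831 to 35188 in CA1. The sum of 2 CA1 pyramidal markers was 4304 to 5452 in CA1, above every hippocampal array, which went from 3696 to 4017 without induction to 2694 at 5 weeks. The 4 dentate granule cell markers summed to 2079 to 3411 in CA1, 4795 to 5390 in never-induced hippocampus and 3084 at 5 weeks. The 4 CA3 and CA2 pyramidal markers summed to 11585 in wild-type CA1 and 10369 to 10840 in induced CA1. In hippocampus they gave 9870 to 10626 without induction, 11112 to 12684 at 2 weeks and 7623 at 5 weeks. CA1 was thus not below the never-induced range for these markers. The part of these other cell types in the Creb1 and Crem readings was not tested.

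The arrays fell into 2 deposited scales, with a trimmed mean of 500.3 to 500.4 on wild-type hippocampal array 1 and the 3 CA1 arrays and 3002 on the other 8, which the rescaling removed. After it the arrays correlated at r = 0.932 to 0.978 within hippocampus, 0.907 to 0.947 within CA1 and 0.828 to 0.921 between regions, and 18.0% to 21.5% of the probe sets of an array lay at the floor. With the deposited scale as a block, Creb1 102672_g_at kept its difference between induced and never-induced hippocampus (2.76) but not its call (adjusted p = 0.125).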

How the data were processed

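The deposited values are linear intensities, 1 value per probe set and array. GCOS, Affymetrix software, is named in the submitters' processing notes, with no version, algorithm or scaling. Arrays were brought to one 2% trimmed mean (1000), values under the 20th percentile (65.7) were raised to it, and log2 was taken. After 66 control probe sets were left out, 7069 of 12422 were tested with limma 3.58.1 in R 4.3.3 (two-sided, Benjamini-Hochberg over all of them, threshold 0.05), with states, times or regions as levels. The test was checked on simulated data. Levels with 1 array were assumed to vary like the others. Members under the filter took their values from a fit over all 12422. Samples were grouped by title. Each p-value reflects the spread of pooled samples rather than of mice, and precision is limited by the few arrays.

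All probe sets of both genes are named. So are the 5 most similar genes for each and, from each list, genes past the threshold or among the 3 with the largest hippocampal difference, of which a selection is described; a listed gene is read by its brightest probe set. Members and lists were chosen with earlier results of these data known. Alternatives varied scaling, floor, filter, blocks, samples and eBayes settings. No promoter window of Crem was used.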

Additional observations from a re-analysis of the deposited data

How the results depend on the processing

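Of 1284 values of the probe sets' differences under alternatives, 1214 kept their direction and side of the threshold, 32 lost a call, 0 gained one and 38 changed sign. The values covered 65 differences, most of which had not passed and so had no call to lose. Creb1 102672_g_at passed in the region-blocked comparison under every alternative run. The arrays with few replicates and probe sets near the floor limit what can be told, and the cause of each change below was not tested unless fewer samples or genes entered.

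Leaving out 1 array at a time, 102672_g_at ranged from 2.64 to 2.97 in induced against never-induced hippocampus, where the call was lost without wild-type array 1 (adjusted p = 0.124), the array on dox (0.118), wild-type array 2 (0.0712) or 2-week array 1 (0.0534). It ranged from 2.17 to 2.37 at 1 week, losing the call in 7 cases, and from 2.82 to 3.52 in CA1. Signs changed for 102673_at (-0.25 to 0.32 in induced hippocampus, -0.10 to 0.47 at 1 week, -0.56 to 0.90 at 2 weeks, -0.76 to 0.70 between 2 weeks and 1), for 100533_s_at (-0.014 to 0.28 at 1 week, -0.033 to 0.079 for reversed against induced) and for 160526_s_at (-0.11 to 0.36 in induced hippocampus, -0.32 to 0.14 at 1 week, -0.092 to 0.38 at 2 weeks).

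The 1-week call of 102672_g_at was also lost with the deposited scale as a block (2.22), trend and robust settings (2.27), log2(value + 50) (1.82), no filter (2.27), no floor (2.50) and quantile normalization (2.15). The hippocampal call was lost with the scale block (2.76) and no filter (2.81). The CA1 call was lost with trend and robust settings (3.17), log2(value + 50) (2.57) and CA1 arrays alone (3.17). Without rescaling, values of 2.77 at 1 week, 3.75 at 2 weeks, 3.52 at 5 weeks and 1.64 in CA1 did not pass. Signs changed with the scale block for 100533_s_at at 1 week (-0.014) and for 160526_s_at at 2 weeks (-0.092) and over all times (-0.11), and for 102673_at between 2 weeks and 1 with log2(value + 50) (0.017) or quantile normalization (0.022), which also turned 100533_s_at for reversed against induced (-0.093). Without rescaling they changed for the regional difference of 102671_at (-1.60), 102672_g_at (-1.67), 102673_at (-0.82) and 160526_s_at (-0.25), for 102673_at at 5 weeks (0.30) and on dox (0.082), for 100533_s_at in wild-type CA1 (-1.16), and for 160526_s_at at 1 week (0.57) and in wild-type CA1 (-1.48).

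Deviations of same-numbered arrays from their group means had r from -0.226 to 0.195. This cannot decide whether the numbers pair samples, because each group holds a single pair of arrays. The labels do not say that they do. With the replicate number as a block, over numbered arrays alone, 102672_g_at was higher by 2.71 in induced hippocampus (adjusted p = 0.494) and by 2.22 at 1 week (0.0589). Without the block, an alternative chosen after seeing the data, the same arrays gave 2.71 (0.322) and 2.22 (0.244). Either way 102673_at turned to -0.12 over all times, -0.10 at 1 week and -0.13 at 2 weeks, and 160526_s_at to 0.14 at 1 week.

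Counts of tested probe sets past the threshold ranged from 1 to 11 in the region-blocked comparison (2 as reported), 0 to 5 in induced hippocampus (2), 0 to 5 at 1 week (2), 2 to 24 at 2 weeks (11), 2 to 90 at 5 weeks (70) and 0 to 292 in CA1 (33).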
